A study of Mus musculus with 23 samples.

Results

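The 40 genes described here encode proteins of DNA replication and cell division, and were taken as a fixed list of mouse symbols. Of these, 18 act in S phase or the approach to it (the S phase genes) and 22 in mitosis or the approach to it. All 40 were among the 13405 genes that had enough reads to be tested, of 55416 gene rows in the count tables. Tissue scraped from the proximal small intestine gave one RNA-seq library per mouse, 23 in all. The mice were C57BL/6JRccHsd, labelled female, and were killed at 42 days of age after 3 weeks on a pelleted diet that began on day 21. The galactose group (labelled GAL42, 12 mice) ate 16% of energy as galactose and 16% as glucose, and the glucose group (labelled GLU42, 11 mice) ate 32% of energy as glucose, with both diets otherwise alike. The comparison asks how partly replacing dietary glucose with galactose after weaning relates to gene expression in this tissue.

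In the epithelium of the small intestine, cells divide in the crypts: stem cells at the crypt base give rise to rapidly dividing progenitors, whose daughters stop cycling as they move onto the villus. Before S phase a ring helicase is loaded onto replication origins, cyclin E kinases promote its firing, and enzymes of nucleotide synthesis supply the polymerases. Cyclin B with its kinase then drives entry into mitosis, and the aurora and polo kinases, spindle motors and checkpoint proteins move the chromosomes apart. Lgr5, a receptor for R-spondins, and Olfm4, a secreted olfactomedin glycoprotein, mark crypt base stem cells in mouse small intestine. A scraping mixes epithelium with other cells of the wall, so fewer dividing cells and less RNA per dividing cell cannot be told apart in these libraries.

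Libraries held 15382583 to 17174721 counts in genes, and no pair within a diet was a copy of another. Markers of villus enterocytes, the main cell of this tissue, were abundant: their 17 genes (among them Sis, Fabp1 and Alpi) summed to 78172 to 103950 CPM (counts scaled to library size) on galactose and 71942 to 112019 CPM on glucose. Galactose replicate 12 is labelled female but had 4 Xist counts and 225 counts in Y-linked genes, against a median of 1518.5 Xist counts and at most 1 Y-linked count in the other 22 libraries. Galactose replicate 2 held 656 CPM of pancreatic acinar transcripts, against at most 7.89 CPM in any other library. Galactose replicate 7 also stood apart, since 219 genes passed the diet test over all genes without it and 0 with it. Values without these libraries are given beside a part of the results on the cell cycle genes and markers that they move.

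Promoters of 5 of the genes are printed, 4 that hold sequences known from cell cycle genes and 1, of Cdt1, that holds none of them. E2F sites bind the E2F factors of the G1 to S transition, and the cell cycle homology region (CHR), often near CCAAT boxes, is bound by the DREAM and MuvB complexes at genes of G2 and mitosis. The search used the letters TTCCCGC and TTGGCGC for E2F, TTTGAA and TTCGAA for the CHR, and CCAAT, on both strands, in the 250 bases before the start of each RefSeq gene (build GRCm38.p6). A promoter was found for 33 of the 40 genes, in 36 windows, and a gene with more than 1 window took its highest count. In 29 of the 36 windows the sequence after the start matched a transcript of the gene, and all windows were counted. Unmatched windows with E2F letters were those of Mcm5, Mcm6 and Mki67, and with CHR letters those of Mki67 and Kif11. CHR letters were present in 9 of 18 mitotic promoters (50%) and in 2 of 15 S phase promoters (13.3%), against 19.6% of 27025 genes. CCAAT stood in 16 of 18 mitotic promoters (88.9%), in 9 of 15 S phase promoters (60%) and in 37.5% of all genes. CHR letters together with CCAAT were held by 50% of the mitotic promoters, 13.3% of the S phase promoters and 7.93% of all genes. E2F letters were found in 3 of 18 mitotic promoters (16.7%), in 6 of 15 S phase promoters (40%) and in 6.45% of all genes. A match is a description of letters and does not show that a factor binds. The 3 mitotic genes shown hold CHR and CCAAT letters, Cdk1 among them also E2F letters, Rrm1 holds E2F and CCAAT letters, and Cdt1 holds none of the letters searched. Sequences run 5′ to 3′ on the gene's strand from the RefSeq table, with the matched letters of either strand in capitals. Ccnb2 lies at chr9:70421555-70421804 on the minus strand, Cdk1 at chr10:69352913-69353162 (minus), Top2a at chr11:99024190-99024439 (minus), Rrm1 at chr7:102441445-102441694 (plus) and Cdt1 at chr8:122567765-122568014 (plus).
Ccnb2: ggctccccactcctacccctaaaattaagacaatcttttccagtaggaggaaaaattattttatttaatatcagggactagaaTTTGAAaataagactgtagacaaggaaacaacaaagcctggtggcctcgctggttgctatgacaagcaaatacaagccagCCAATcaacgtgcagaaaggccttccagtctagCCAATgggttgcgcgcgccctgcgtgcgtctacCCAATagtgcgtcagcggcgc
Cdk1: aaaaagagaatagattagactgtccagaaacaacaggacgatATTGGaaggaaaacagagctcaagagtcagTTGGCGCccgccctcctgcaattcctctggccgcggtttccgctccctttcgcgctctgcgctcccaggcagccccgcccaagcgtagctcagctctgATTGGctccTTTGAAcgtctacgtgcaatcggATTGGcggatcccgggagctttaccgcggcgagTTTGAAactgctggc
Top2a: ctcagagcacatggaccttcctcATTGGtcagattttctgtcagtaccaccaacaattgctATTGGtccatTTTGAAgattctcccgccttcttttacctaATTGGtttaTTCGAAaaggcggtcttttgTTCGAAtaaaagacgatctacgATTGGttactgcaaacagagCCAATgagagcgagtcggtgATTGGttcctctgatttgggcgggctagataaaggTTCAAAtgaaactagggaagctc
Rrm1: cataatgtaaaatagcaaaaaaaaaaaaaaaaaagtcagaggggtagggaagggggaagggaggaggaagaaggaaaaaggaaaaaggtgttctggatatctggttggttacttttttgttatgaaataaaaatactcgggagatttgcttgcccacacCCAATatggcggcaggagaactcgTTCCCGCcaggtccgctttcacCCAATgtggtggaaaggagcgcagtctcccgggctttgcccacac
Cdt1: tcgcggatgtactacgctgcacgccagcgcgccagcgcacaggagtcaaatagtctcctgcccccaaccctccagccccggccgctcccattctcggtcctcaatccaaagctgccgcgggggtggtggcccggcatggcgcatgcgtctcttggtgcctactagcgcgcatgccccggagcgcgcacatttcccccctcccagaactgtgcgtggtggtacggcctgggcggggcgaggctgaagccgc

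None of the 40 genes differed between the diets by the test. With edgeR's quasi-likelihood test and Benjamini-Hochberg adjustment over all genes, 0 of 18 S phase genes and 0 of 22 mitotic genes were called, and the same held for all 13405 genes (0.0%). At an unadjusted p under 0.05 the count was also 0 of 40, against 14.4% of all tested genes. DESeq2 and limma-voom with sample quality weights likewise called 0 of the 40, while they called 131 and 167 genes over the whole table. The groups overlapped for 40 of 40 genes, and they failed to overlap for 0 of 13403 genes compared (0.0%). The largest difference of any of them was 0.23 on the log2 scale, and the 95% interval lay within a 2-fold change in either direction for 40 of 40, the outermost bounds being -0.65 and 0.66. These intervals bound the size of a difference and do not show that the diets act alike.

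**Figure D1:**
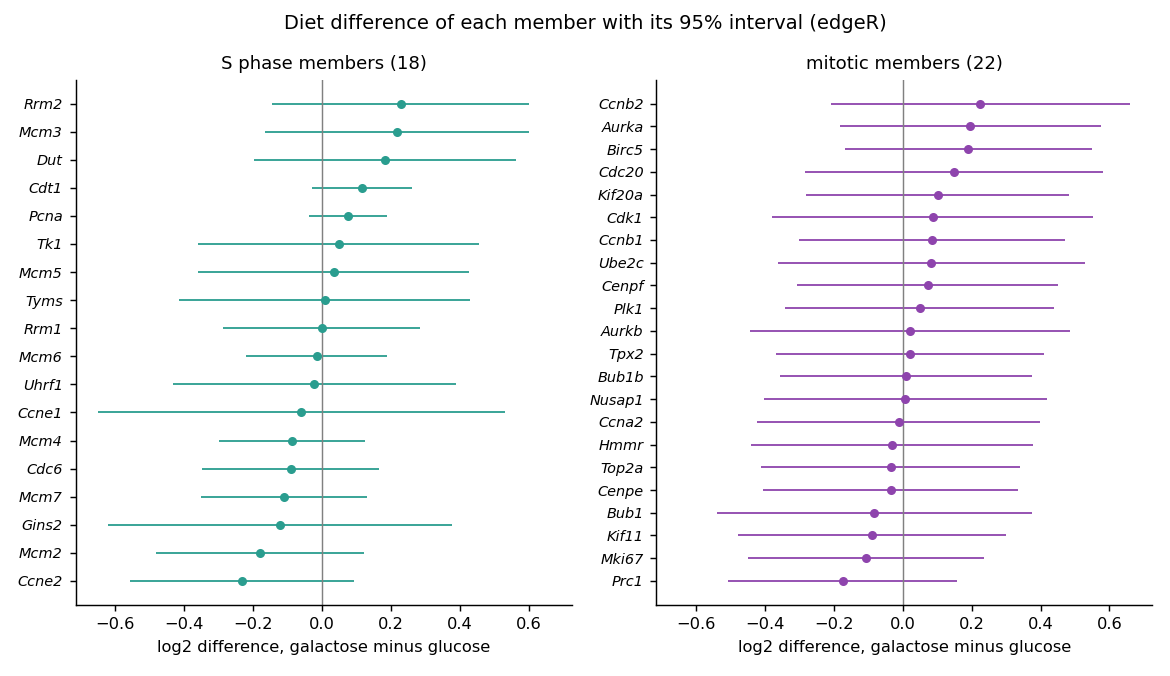
Points give the log2 difference, galactose minus glucose, of each S phase gene (left panel) and mitotic gene (right panel), and lines its 95% interval from edgeR over 12 galactose and 11 glucose mice. Every interval crosses 0, and none reaches beyond -0.65 or 0.66.

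Among the genes of S phase, the smallest unadjusted p belonged to Cdt1, which loads the helicase onto origins. Cdt1 had 22.4, 27.4 and 32.7 CPM (lowest, median, highest) on galactose, against 20.5, 24.97 and 28.2 CPM on glucose. Its log2 difference was 0.12 ± 0.07 (SE, adjusted p = 0.449 by edgeR). The ranges overlapped for most of their length. Ccne2, a cyclin E, had 3.97, 7.28 and 12.8 CPM on galactose and 5.32, 8.92 and 11.5 CPM on glucose, with a difference of -0.23 ± 0.16 (adjusted p = 0.514 by edgeR). Here both the lowest and the highest mouse were on galactose, the highest being replicate 2, without which the difference was -0.33. Pcna, the sliding clamp of the DNA polymerases, had 55.2, 66.7 and 73.4 CPM on galactose and 54.4, 62.1 and 69.6 CPM on glucose, with a difference of 0.08 ± 0.05 (adjusted p = 0.545 by edgeR). Rrm2, the regulated subunit of ribonucleotide reductase, had 5.78, 8.58 and 13.8 CPM on galactose and 3.83, 7.40 and 13.5 CPM on glucose. Its difference was 0.23 ± 0.18 (adjusted p = 0.58 by edgeR), less than the spread among mice of one diet. Mcm2, a subunit of the helicase, averaged 22.4 ± 5.005 CPM on galactose and 25.4 ± 8.76 CPM on glucose (SD, n = 12 and 11). Its wider spread on glucose came with a highest value of 48.5 CPM in glucose replicate 11, against 30.3 CPM in the highest galactose mouse.

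The mitotic genes gave no smaller p-values. Birc5 (survivin), of the chromosomal passenger complex, had 5.46, 13.01 and 18.2 CPM on galactose, against 6.36, 9.65 and 17.7 CPM on glucose, with a difference of 0.19 ± 0.17 (log2 scale, SE; edgeR adjusted p = 0.646). Prc1, which bundles microtubules of the central spindle, had 6.05, 10.5 and 13.7 CPM on galactose and 6.17, 11.9 and 17.6 CPM on glucose, with a difference of -0.17 ± 0.16 (adjusted p = 0.652 by edgeR). These differences had opposite signs and neither exceeded the spread between mice. Ccnb2, a cyclin B, had 5.85, 12.3 and 20.2 CPM on galactose and 4.28, 9.71 and 17.3 CPM on glucose. Aurka, a kinase of the spindle poles, had 3.88, 9.06 and 12.9 CPM on galactose and 3.50, 8.81 and 11.2 CPM on glucose. For both genes the adjusted p was 0.655 by edgeR and the ranges nearly coincided. Ki-67, encoded by Mki67 and widely used as a marker of cycling cells, had 19.3, 42.2 and 58.9 CPM on galactose and 24.3, 48.0 and 63.2 CPM on glucose, a difference of -0.11 ± 0.17 (adjusted p = 0.807 by edgeR). Top2a, the topoisomerase that untangles replicated chromosomes, had 14.9, 34.2 and 47.9 CPM on galactose and 18.6, 34.7 and 55.9 CPM on glucose, a difference of -0.03 ± 0.18 (adjusted p = 0.954 by edgeR). Both of these genes varied widely among mice of either diet. Ccnb1, the main cyclin B of mitotic entry, averaged 6.92 ± 2.13 CPM on galactose and 6.52 ± 2.30 CPM on glucose. Its kinase partner Cdk1 averaged 10.5 ± 3.78 CPM on galactose and 9.92 ± 4.43 CPM on glucose (SD, n = 12 and 11), again closer than the SD within a diet.

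As lists, 8 S phase genes had a positive and 10 a negative difference, with a median of -0.01, and 14 mitotic genes had a positive and 8 a negative difference, with a median of 0.02. The median over all tested genes was -0.00174. A score for each phase, the mean log2 CPM of its genes, averaged 3.20 ± 0.281 on galactose and 3.19 ± 0.312 on glucose for S phase, and 3.35 ± 0.458 on galactose and 3.30 ± 0.516 on glucose for mitosis (SD, n = 12 and 11). The S phase score minus the mitotic score was -0.149 ± 0.230 on galactose and -0.106 ± 0.244 on glucose, so the diets differed in it by less than its spread among mice. Over all 23 mice the SD was 0.289 for the S phase score and 0.476 for the mitotic score. Their difference is therefore not an even measure of the balance of the phases. Single libraries set the sign of these medians: without galactose replicate 12 they were -0.08 for S phase and -0.03 for mitosis, without replicate 2 they were 0.04 and 0.09, and without replicate 7 they were 0.01 and 0.06. Libraries also differed in how CPM depended on transcript length, with a slope (log2 CPM per log2 length) of -0.0289 ± 0.0553 on galactose and 0.0315 ± 0.0450 on glucose. That slope had a negative r with 37 of the 40 genes. With it as a covariate, 17 of 18 S phase and 22 of 22 mitotic genes had a negative difference, with medians of -0.19 and -0.25 against 0.00426 over all genes. In that fit 0 of 40 were called, as were 0 of all genes. Of the 40, 3 had an unadjusted p under 0.05, and the smallest adjusted p was 0.736. The share of all genes at that unadjusted p, or with a negative r to the slope, was not counted.

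**Figure D2:**
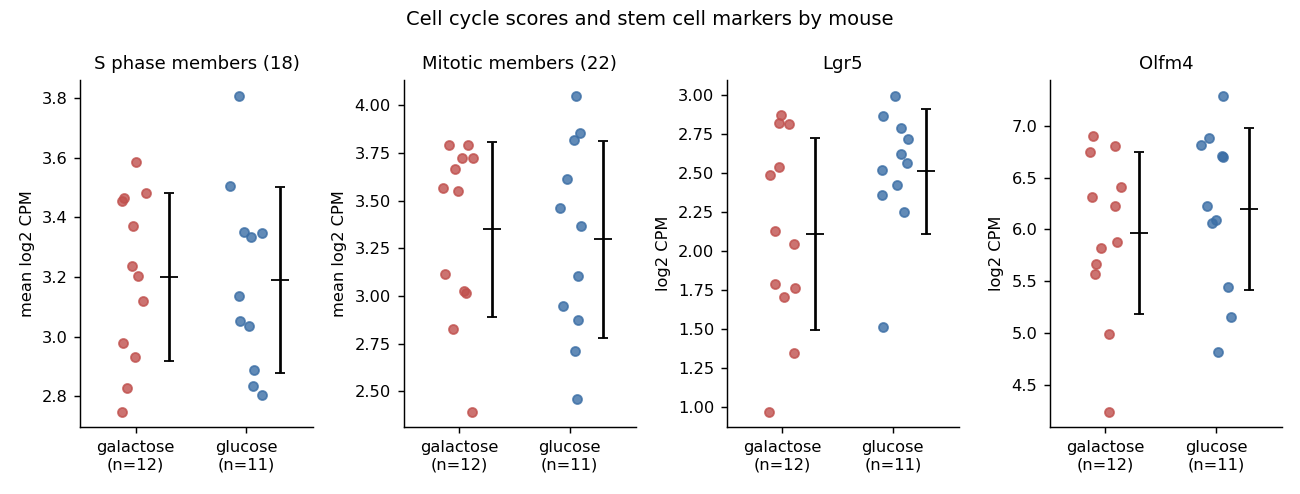
Each point is 1 mouse. Its height is the mean log2 CPM of the S phase or the mitotic genes, or the log2 CPM of Lgr5 or Olfm4. Bars give the mean and SD of each diet (12 galactose, 11 glucose). The mitotic scores spread more widely than the S phase scores, and the diets overlap for each of them.

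The genes varied far more between mice than between diets. The biological coefficient of variation, edgeR's estimate of the relative spread between mice of a diet beyond counting error, had a median of 0.274 for S phase genes and 0.310 for mitotic genes, against 0.156 for all tested genes. It exceeded 0.139, the median of 5878 genes with 5 to 50 CPM, for 16 of 18 S phase genes and 22 of 22 mitotic genes. Ccne1, Gins2, Cdc6 and Bub1 lie under 5 CPM and Pcna above 50 CPM, outside that range. Mitotic genes lay close together, between 0.264 for Prc1 and 0.372 for Cdk1. S phase genes ranged from 0.0956 for Pcna and 0.116 for Cdt1 to 0.437 for Ccne1, the second cyclin E gene. The highest mouse exceeded the lowest by 1.35-fold for Pcna and by 6.05-fold for Ccne1. The median of that fold was 3.26 over S phase genes and 3.67 over mitotic genes. The extremes were shared, since glucose replicate 8 was the highest library for 14 of 22 mitotic and 9 of 18 S phase genes. Galactose replicate 2 was the lowest for 13 of the 22 mitotic genes and glucose replicate 4 for 8. Counts of the 40 genes ran from 7 to 1219 per library, so the scarcest are also limited by counting error.

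**Figure D3:**
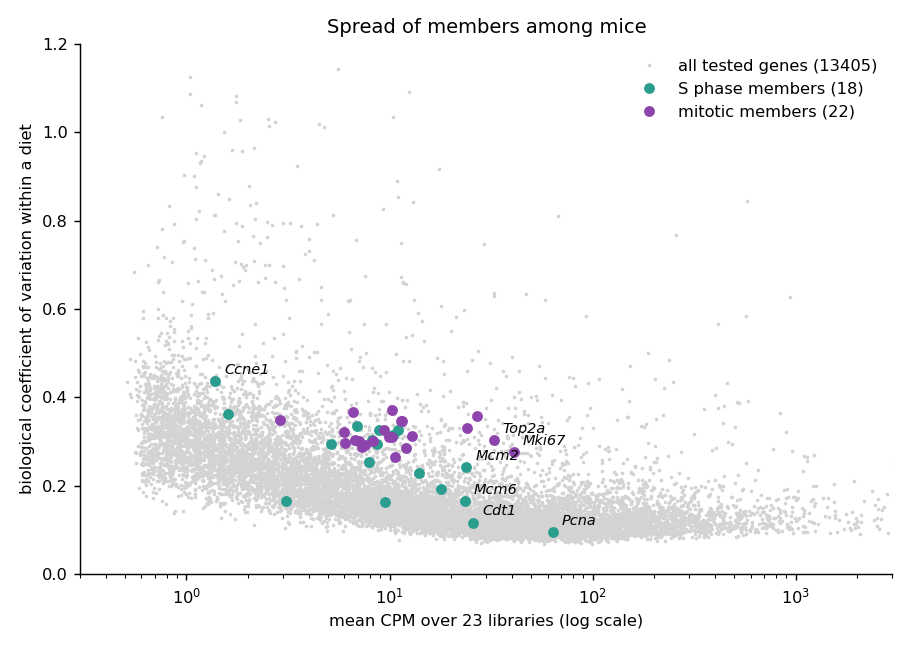
The horizontal axis is mean CPM over 23 libraries on a log scale, the vertical axis the biological coefficient of variation within a diet, grey points all tested genes within the axes and coloured points the S phase and mitotic genes. Mitotic genes form a band between 0.264 and 0.372, while Pcna and Cdt1 lie at 0.0956 and 0.116.

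Per length of the longest transcript, Pcna had the highest level of the 40 genes, at 42.0 CPM per kb over all libraries. Next in that order stood Ube2c, the conjugating enzyme of the anaphase-promoting complex, at 12.3 CPM per kb, Cdt1 at 9.59 and Ccna2, cyclin A, at 8.16. The lowest were Gins2, a subunit of the replicative helicase, at 0.409 CPM per kb and Cenpf, a kinetochore protein, at 0.542. Pcna therefore combined the highest level per length with the smallest relative spread.

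Mitotic genes moved together across mice, and S phase genes less uniformly. Over 23 libraries the 231 pairs of mitotic genes had a median Pearson r of 0.859, with a range of 0.615 to 0.971. The 153 pairs of S phase genes had a median r of 0.545, with a range of -0.54 to 0.933, and 85 of them reached 0.5. Between the phases the median r of 396 pairs was 0.713, and the scores of the phases had r = 0.932 and rho = 0.951 (r = 0.917 on galactose, 0.946 on glucose). Pairs share libraries and their depth, and these correlations are given as a description. Of all genes outside the list, Cdca3, a cell cycle gene with a part in mitotic entry, was most like the mitotic score (r = 0.983 over 23 libraries). It was followed by Racgap1 of the central spindle (0.957), Impdh2 of guanine nucleotide synthesis (0.956), the condensin subunit Ncapd2 (0.954) and the spindle protein Tacc3 (0.952). Most like the S phase score were Tubb5 (0.948), a beta tubulin, Cdca3 (0.938), Tacc3 (0.930), Plp2 (0.929) and Atic (0.925), an enzyme of purine synthesis.

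The stem cell markers themselves did not pass the diet test. Lgr5 had 1.84, 4.14 and 7.22 CPM on galactose and 2.74, 5.80 and 7.87 CPM on glucose, with a difference of -0.34 ± 0.20 (log2 scale, SE; edgeR adjusted p = 0.433). Olfm4 had 18.8, 66.8 and 119 CPM on galactose and 28.1, 74.7 and 157 CPM on glucose, with a difference of -0.24 ± 0.27 (adjusted p = 0.72 by edgeR), which was -0.11 without glucose replicate 8 and -0.15 without galactose replicate 2. Without galactose replicate 12 the Olfm4 difference was -0.34, and without galactose replicate 2 the Lgr5 difference was -0.26. Both markers overlapped between the diets over most of their range. Across the 23 mice Lgr5 and Olfm4 had r = 0.533 and rho = 0.386, with r = 0.779 on galactose and 0.106 on glucose.

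Every mitotic gene and most S phase genes were higher in mice with more Olfm4. Pearson's r was tested for every gene by 100000 permutations and adjusted over 13404 genes. By that test 35 of the 40 genes rose with Olfm4, against 6.8% of all tested genes: 22 of 22 mitotic and 13 of 18 S phase genes. None fell with it, against 3.7% of all tested genes. Spearman's rho gave the same counts by phase, against 6.02% of all genes called positive. With diet held, edgeR called 36 of 40 without regard to sign. Its share of all genes, 7.82%, counts positive calls only, so these values are not like for like. An r of at least 0.5 was reached by the same 22 mitotic and 13 S phase genes, against 9.21% of all tested genes. The median r was 0.845 for mitotic genes, with a range of 0.712 to 0.938, and 0.757 for S phase genes. Top2a had r = 0.938 and rho = 0.899 (permutation p = 1e-05, the smallest that 100000 permutations can give, adjusted p = 0.000713). Within diets its r was 0.946 on galactose and 0.947 on glucose, and it was 0.920 without galactose replicate 2 and glucose replicate 7, the mice farthest from the median Olfm4 level. Mki67 had r = 0.933 and rho = 0.883, with r = 0.928 on galactose, 0.940 on glucose and 0.904 without the farthest mice, at the same p-values. The relation of these genes to Olfm4 thus held inside each diet. Among S phase genes the highest r belonged to Tk1, the thymidine kinase of the salvage pathway, at 0.900 (rho = 0.866, adjusted permutation p = 0.000713), with 0.906 on galactose and 0.936 on glucose. Rrm1, the large subunit of ribonucleotide reductase whose promoter is printed above, had r = 0.826 (rho = 0.850, adjusted permutation p = 0.000713). Without galactose replicate 12 the count was 34 of 40, with 12 S phase and 22 mitotic genes, the one lost being the helicase subunit Mcm6 (adjusted permutation p = 0.0513). Without replicate 2 or replicate 7 it was 35. The share of all genes called was not counted with a library left out.

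**Figure D4:**
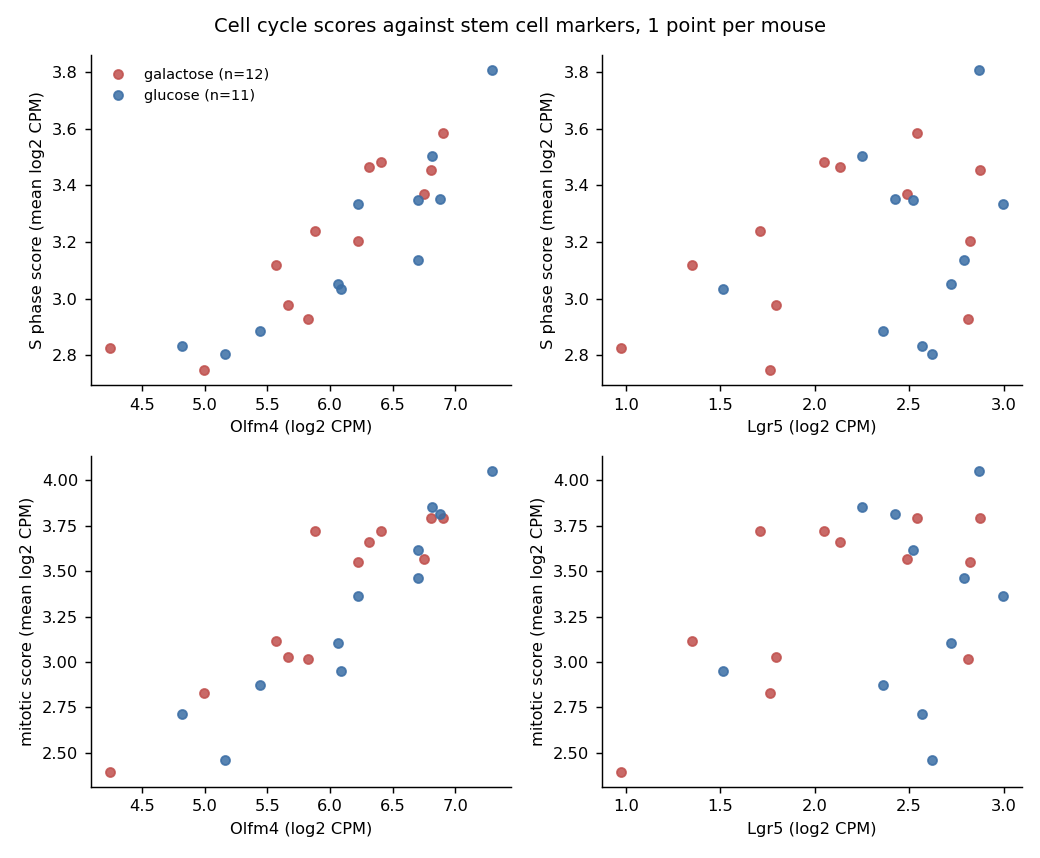
Each point is 1 mouse, with the S phase score (top) or mitotic score (bottom) on the vertical axis and log2 CPM of Olfm4 (left) or Lgr5 (right) on the horizontal axis. The scores rise along Olfm4 in both diets (r = 0.878 for S phase, 0.911 for mitosis) and scatter widely along Lgr5 (0.340 and 0.378).

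Lgr5 gave no call among the 40 genes. By the same test 0 of 40 passed, against 2.24% of all tested genes called positive and 0.709% negative. Spearman's rho (1.4% of all tested genes called positive) and edgeR with diet held (2.06% positive) also called 0. At an unadjusted permutation p under 0.05 the count was 10 of 40, against 17.1% of all tested genes for either sign (for Olfm4, 37 of 40 against 25.1%). An r of at least 0.5 was reached by 2 of 40, both mitotic, against 5.74% of all tested genes. The median r with Lgr5 was 0.347 for mitotic and 0.303 for S phase genes. The highest was Prc1, with r = 0.569 and rho = 0.457 (permutation p = 0.00434, adjusted p = 0.0854). Its r was 0.742 on galactose and 0.296 on glucose, and 0.399 without galactose replicates 2 and 9, the mice farthest from the median Lgr5 level. Among mitotic genes Mki67 followed with r = 0.503 (0.715 on galactose, 0.211 on glucose) and Top2a with 0.466 (0.642 on galactose, 0.290 on glucose). For these mitotic genes r was higher in the galactose than in the glucose mice, and whether it differed between the diets was not tested. With galactose replicate 2 left out, r with Lgr5 was 0.471 for Prc1, 0.331 for Mki67 and 0.295 for Top2a. Lowest among the mitotic genes were the checkpoint kinase Bub1 (0.160) and Ccnb1 (0.199). Among S phase genes Gins2 (0.474), Rrm1 (0.459) and the helicase subunit Mcm5 (0.433) were highest, and Cdt1 (-0.28) and Ccne2 (-0.20) lowest. Prc1 was called with Lgr5 when glucose replicate 4 was left out (r = 0.666, adjusted permutation p = 0.0392).

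The r with Olfm4 was above the r with Lgr5 for 39 of 40 genes, Ccne2 being the exception, and the difference between the markers was not tested. Lgr5 had 28 to 134 counts per library, where counting error at the median is 10.5% of the value, and Olfm4 had 286 to 2641 counts, where it is 2.85%. The mitotic score had r = 0.911 with Olfm4 (rho = 0.915, 0.921 on galactose, 0.947 on glucose, 0.907 without galactose replicate 12) and 0.378 with Lgr5 (rho = 0.229, 0.613 on galactose, 0.196 on glucose). The S phase score had r = 0.878 with Olfm4 and 0.340 with Lgr5. Without the 2 farthest mice of each marker, the mitotic score had r = 0.881 with Olfm4 and 0.161 with Lgr5.

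**Figure D5:**
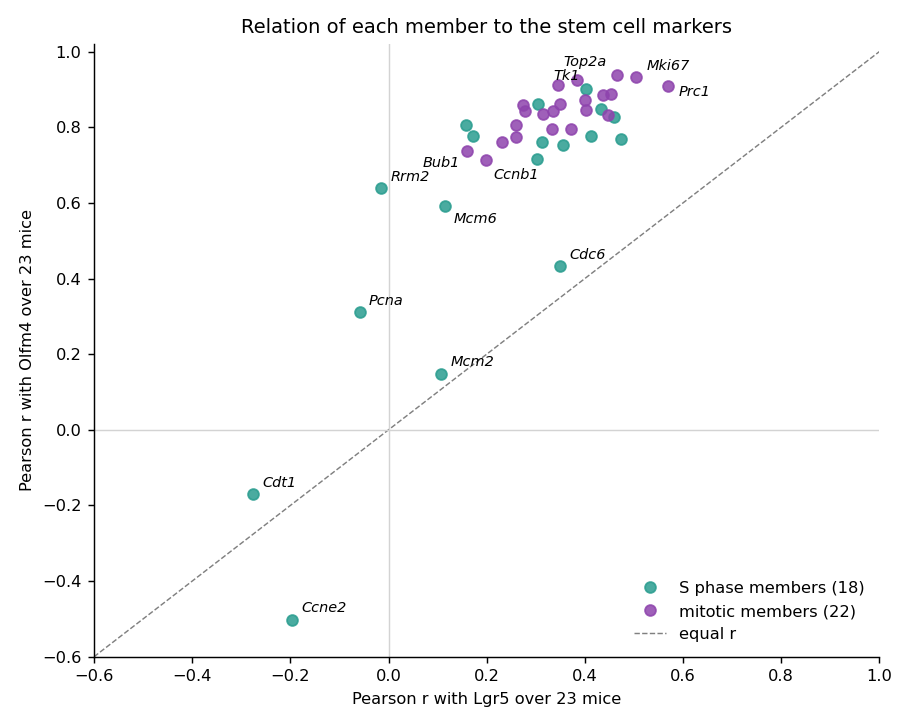
Each point is 1 of the 40 genes, with Pearson's r with Lgr5 on the horizontal and with Olfm4 on the vertical axis, both over 23 mice, and the dashed line marks equal r. Mitotic genes have an r of at least 0.712 with Olfm4, whereas Ccne2, Cdt1, Mcm2, Pcna and Cdc6, which were not called, lie below them. Mcm6 (0.591) and Rrm2 (0.640), which were called, also lie below the mitotic genes.

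The genes that were not called with Olfm4 all belong to the S phase list: Pcna, Mcm2, Cdt1, Ccne2 and Cdc6, a loader of the helicase. Pcna had r = 0.312 and rho = 0.457 with Olfm4 (permutation p = 0.148, adjusted p = 0.371). Cdc6 had r = 0.432 (adjusted permutation p = 0.171) and Mcm2 had r = 0.149 (adjusted permutation p = 0.722). Cdt1 and Ccne2 had negative values, with r = -0.17 (adjusted permutation p = 0.677) and r = -0.50 (permutation p = 0.014, adjusted p = 0.0925). Ccne2 kept its sign in both diets, at -0.61 on galactose and -0.56 on glucose. Other subunits of the same helicase, such as Mcm5 (r = 0.847, adjusted permutation p = 0.000713) and Mcm6 (r = 0.591, adjusted permutation p = 0.0328), were called. Mcm6 had r = 0.289 on galactose and 0.856 on glucose, a difference between the diets that was not tested. With each of the 23 libraries left out in turn, Mcm6 lost its call in 9 cases, with r down to 0.525 and an adjusted permutation p up to 0.103 without glucose replicate 8. The uncalled genes had pairwise r between -0.49 and 0.318. The other 13 S phase genes had a median pairwise r of 0.729 and a lowest of 0.476. The split rests on r with Olfm4 in these same mice, which favours such a contrast, so these values are only a description. It also depended on scaling: with library totals in place of TMM, Pcna (r = 0.587) and Cdc6 (r = 0.555) were called, and Cdt1 had r = 0.116. Against the mitotic score, r was 0.468 for Pcna, 0.368 for Cdc6, 0.123 for Mcm2, -0.02 for Cdt1 and -0.55 for Ccne2.

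Other crypt and villus transcripts moved with the scores, and their part in the relation to Olfm4 was not tested. The other 17 crypt stem cell markers, without Lgr5 and Olfm4, had a score with r = 0.821 to the mitotic score and 0.807 to the S phase score. Paneth cell markers, 12 of 12 detected with a summed level of 429 to 1948 CPM on galactose and 387 to 2336 CPM on glucose, had r = 0.787 and 0.788. Villus enterocyte markers had r = -0.84 and -0.76. B cell and germinal centre markers, a further possible source of dividing cells, passed the count filter for 8 of 15 genes and summed to 46.8 to 128 CPM on galactose and 42.0 to 77.9 CPM on glucose. Their score had r = 0.375 with the mitotic and 0.400 with the S phase score. T cell markers summed to 193 to 476 CPM on galactose and 82.3 to 369 CPM on glucose, with 15 of 15 detected, and had r = -0.18 and -0.06. Goblet cell, smooth muscle and fibroblast scores had r between 0.0449 and 0.331. In none of these marker lists was a gene at 0 in every library. The length slope had r = -0.46 with the mitotic and -0.52 with the S phase score. After removal of diet and length slope 34 of 40 genes were called with Olfm4, and the share of all genes was not counted.

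Further genes of the cell cycle were taken from broader lists. Of 55 other S phase genes tested, 0 were called between the diets by edgeR and 1 was higher on galactose at an unadjusted p under 0.05, against 8.63% of all genes. That gene was Rfc3, of the clamp loader, at 8.66 ± 1.34 CPM on galactose and 7.48 ± 1.38 CPM on glucose (SD), and differed by 0.21 ± 0.10 (log2 scale, SE; edgeR adjusted p = 0.342). Rfc2, of the same complex, and geminin (Gmnn), the inhibitor of Cdt1, had differences of 0.11 ± 0.06 and 0.16 ± 0.09. Of 61 other mitotic genes 0 were called and 1 was higher at that unadjusted p, securin (Pttg1), at 15.8 ± 2.88 CPM on galactose and 13.7 ± 1.83 CPM on glucose, where edgeR gave an adjusted p of 0.33. The kinesin Kif18a and Ube2s, which extends ubiquitin chains for the anaphase-promoting complex, had differences of 0.40 ± 0.22 and 0.17 ± 0.11. Of 30 regulators of G1, 0 were called and 2 were lower at an unadjusted p under 0.05, against 5.72% of all genes. These were the kinase inhibitor Cdkn1c (-0.25 ± 0.11, adjusted p = 0.308 by edgeR) and the retinoblastoma relative Rbl2 (-0.13 ± 0.06, adjusted p = 0.328 by edgeR), while Rb1 itself had -0.12 ± 0.07. None of these genes therefore passed the adjusted threshold.

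With Olfm4, 35 of the 55 other S phase genes and 55 of the 61 other mitotic genes were called positive by the permutation test, against 6.8% of all tested genes, and with Lgr5 0 of either list, against 2.24%. Pttg1 was among the exceptions, with r = -0.26 to Olfm4 (rho = -0.27, adjusted permutation p = 0.468). Of the 30 regulators of G1, 10 were called positive and 0 negative with Olfm4, against 6.8% and 3.7% of all tested genes, and 0 with Lgr5. The following were named after their values were seen. Myc, a growth-promoting transcription factor, had r = 0.888 (rho = 0.814), cyclin D1 (Ccnd1) had r = 0.884 (rho = 0.849) and Cdk2, the kinase of cyclin E, had r = 0.874 (rho = 0.864), each with an adjusted permutation p of 0.000713. At the other end stood the kinase inhibitor Cdkn1a, with r = -0.54 (rho = -0.51, adjusted permutation p = 0.0616), and the p53 antagonist Mdm2, with r = -0.52 (rho = -0.49, adjusted permutation p = 0.0803). Neither of these passed the threshold.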

How the data were processed

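For each of the 23 mice, the authors deposited raw read counts by gene, not normalized. Per the submitters' processing notes STAR, HTSeq and the build GRCm39 were used. For versions, annotation, strand and filters: not given in the sources used here. Rows that name no gene (5, with 13.5% of reads) were left out. Symbols were matched by Ensembl identifier for 52083 of 55416 gene rows. Within diets, 121 library pairs had a chi-square per degree of freedom of 13.2 to 51.0, so none was a copy of another of its diet. Pairs across the diets were not compared. Without strand, reads of a gene and an antisense partner cannot be told apart.

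The diet test was that of edgeR 4.0.16 under R 4.3.3 (filterByExpr, TMM, quasi-likelihood F test on all 23 libraries, diet as the only term, Benjamini-Hochberg threshold 0.05), after a check on simulated data. CPM use TMM library sizes, and log2 CPM a prior count of 2. Correlations used log2 CPM and two-sided permutation tests with 100000 resamples. P-values were adjusted over all tested genes. Phase scores, promoter letters and pairwise correlations were described without a test. Promoters come from RefSeq (GRCm38.p6), transcript lengths from an annotation of that older build, matched by identifier.

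The genes and lists were chosen with earlier results of these data known. The rule for genes named takes the 4 of smallest diet p per phase, Mki67, Top2a, Pcna, Mcm2, Ccnb1, Cdk1, both markers, the 3 highest and 2 lowest r with Lgr5 per phase, the 3 smallest diet p of each other cell cycle or marker list, and the 5 genes most like each score. One gene that the rule takes is not reported here. Alternatives were DESeq2 1.42.0, limma-voom (limma 3.58.1) with quality weights, other scalings, filters and prior counts, the length slope as covariate, and each library left out.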

Additional observations from a re-analysis of the deposited data

How the results depend on the processing

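The diet comparison called 0 of the 40 genes under all alternatives run. Over all genes it called 131 with DESeq2, 167 with limma-voom and quality weights, and 0 to 219 with 1 library left out (219 without galactose replicate 7). With Olfm4, 34 to 37 of the 40 were called: 37 with library totals in place of TMM, which added Pcna (r = 0.587, adjusted permutation p = 0.0304) and Cdc6 (0.555, 0.0447), and 34 after removal of diet and length slope, where Mcm6 was lost (0.509, 0.0765). With Lgr5, 1 was called with library totals, the mitotic gene Prc1 (r = 0.626, adjusted permutation p = 0.041), and 0 to 1 with 1 library left out. No paired analysis was possible because replicate numbers were given in accession order and each mouse is in 1 group. For the counts with Olfm4 and Lgr5 under these settings, the share of all genes called was not counted. The causes of these changes were not tested. Counting error at the median count was highest for Ccne1 (21.3%) and Gins2 (20.4%), against 10.5% for Lgr5.

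The sign of single differences changed with the setting. With the length slope as covariate the log2 difference was -0.024 for Pcna, -0.095 for Mcm3, -0.18 for Mcm5, -0.0082 for Rrm2, -0.31 for Tyms, -0.33 for Tk1, -0.12 for Dut, -0.15 for Ccnb1, -0.17 for Ccnb2, -0.29 for Cdk1, -0.15 for Cdc20, -0.23 for Plk1, -0.12 for Aurka, -0.27 for Aurkb, -0.17 for Bub1b, -0.12 for Birc5, -0.23 for Kif20a, -0.015 for Cenpf, -0.24 for Tpx2, -0.31 for Ube2c, -0.27 for Nusap1, -0.061 for Ube2s and 0.0051 for Rb1. With limma-voom and quality weights it was 0.035 for Mcm6, 0.054 for Rrm1, 0.12 for Uhrf1, 0.030 for Ccne1, 0.069 for Top2a, 0.10 for Ccna2, 0.055 for Cenpe and 0.11 for Hmmr. The r with Lgr5 was 0.192 (library totals) and 0.0359 (diet and length slope removed) for Pcna, and 0.110 and 0.0920 for Rrm2, and the r of Cdt1 with Olfm4 was 0.116 with library totals.

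With 1 library left out, the log2 difference ran from -0.074 to 0.14 for Mcm5, -0.050 to 0.034 for Mcm6, -0.23 to 0.0094 for Gins2, -0.072 to 0.070 for Rrm1, -0.077 to 0.11 for Tyms, -0.023 to 0.15 for Tk1, -0.093 to 0.12 for Uhrf1, -0.15 to 0.067 for Ccne1, -0.10 to 0.065 for Top2a, -0.078 to 0.092 for Ccna2, -0.021 to 0.13 for Plk1, -0.051 to 0.15 for Aurkb, -0.16 to 0.0068 for Bub1, -0.064 to 0.091 for Bub1b, -0.14 to 0.0057 for Kif11, -0.11 to 0.068 for Cenpe, -0.00030 to 0.15 for Cenpf, -0.059 to 0.10 for Tpx2, -0.054 to 0.11 for Nusap1 and -0.11 to 0.071 for Hmmr. The r with Lgr5 ran from -0.20 to 0.014 for Pcna, -0.093 to 0.055 for Rrm2, -0.26 to 0.0062 for Ccne2 and -0.0077 to 0.37 for Hmmr.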

Other observations

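The marker lists that were set beside the cell cycle genes had 0 calls between the diets by edgeR. Their genes of smallest p are given as values, all as log2 differences, galactose minus glucose, with SE. Of all 13405 tested genes, 6773 had a negative difference. Smooth muscle markers were negative in 10 of 10, fibroblast markers in 9 of 9, goblet cell markers in 6 of 8 and villus markers in 9 of 17. Among crypt stem cell markers, 17 of 19 had a negative difference. They were led by the Wnt target Axin2 (-0.31 ± 0.10, unadjusted p = 0.00645 by edgeR) and the transcription factor Ascl2 (-0.76 ± 0.37), followed by Lgr5. Ascl2 was scarce, at 0.959 ± 0.574 CPM on galactose and 1.62 ± 0.950 CPM on glucose (SD). Paneth cell markers were negative in 12 of 12, with Nupr1 at -0.24 ± 0.17, Defa17 at -0.34 ± 0.28 and lysozyme (Lyz1) at -0.28 ± 0.26. Single libraries moved each of these Paneth values by over 1.5 times: without glucose replicate 8 Defa17 had -0.19 and Lyz1 -0.17, and Nupr1 had -0.14 without glucose replicate 10 and -0.16 without glucose replicate 6.

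Villus markers were split, with the sugar transporter Slc5a1 at 0.25 ± 0.09, the ectonucleotidase Nt5e at -0.63 ± 0.22 and the aminopeptidase Anpep at -0.33 ± 0.13. Goblet cell markers Fcgbp, Muc2 and Clca1 had -0.23 ± 0.10, -0.31 ± 0.16 and -0.17 ± 0.10. T cell markers were positive in 14 of 15, with Lck at 0.56 ± 0.17, Trbc2 at 0.60 ± 0.18 and Cd5 at 1.04 ± 0.35. Cd5 was scarce, at 1.63 ± 0.938 CPM on galactose and 0.790 ± 0.497 CPM on glucose (SD). Of the 15 T cell markers, 7 were higher at an unadjusted p under 0.05 by edgeR, against 8.63% of all tested genes. By limma-voom with quality weights Trbc2 passed the threshold (0.71, adjusted p = 0.0493). B cell genes Cd79a and Cd79b had 1.21 ± 0.51 and 0.95 ± 0.41, and Cd79a averaged 7.25 ± 7.01 CPM on galactose and 3.12 ± 2.46 CPM on glucose (SD, n = 12 and 11). Smooth muscle genes Cald1, Cnn1 and Synpo2 had -0.33 ± 0.17, -0.43 ± 0.24 and -0.28 ± 0.19 (Cnn1 -0.21 without glucose replicate 8), and fibroblast genes Fn1, Pdpn and Bgn had -0.36 ± 0.20, -0.34 ± 0.20 and -0.27 ± 0.16. The pancreatic Cela1, the 1 acinar gene of 10 that passed the count filter, had 1.09 ± 0.44 with all libraries but 0.067 without galactose replicate 2.

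The genes most like each S phase gene that was not called with Olfm4 differed from gene to gene, by Pearson's r of log2 CPM over 23 libraries and without a test. They are the highest of all tested genes, leaving out rows without a symbol and symbols that start with Gm. For Pcna they were Mccc2 (0.884), Eef1e1 (0.865) and Mrpl19 (0.841), and for Cdt1 Glb1 (0.747), Vps72 (0.734) and Lurap1l (0.727). For Ccne2 they were Jak1 (0.754), Xk (0.740) and Rbm15 (0.731). Mcm2 had Pkdcc (0.779), Zfp771 (0.764) and Acot1 (0.742), and Cdc6 had Mettl14 (0.719), Pde10a (0.712) and Ncam1 (0.712).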
